A study of Sus scrofa with 6 samples.

Results

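The CXC chemokines are a family of small secreted proteins, and 5 of them were read in pig aortic valve leaflets kept under raised or normal cyclic pressure. They were CXCL2, CXCL8 and CXCL9, which inflammatory signals induce, and CXCL12 and CXCL14, which many tissues make without inflammation. All probe sets that the platform annotation assigns to 1 of these symbols alone were taken, which gave 7 of the 23999 probe sets that are not array controls, with 2 each for CXCL12 and CXCL14. The hypertensive group held 3 samples of leaflets cycled between 0 and 120 mmHg, and the normotensive group held 3 samples cycled between 0 and 80 mmHg. Both groups were kept at 1 Hz for 24 h, and both came from adult female pigs obtained from a meat supplier. In both groups collagenase had been used to remove the endothelium, and the leaflets had spent a night in medium with serum and an antibiotic and antimycotic mix before they entered the bioreactor. The samples are called biological replicates, but it is not settled whether they came from separate animals. A p-value here sets the difference between groups against the spread of samples within a group, and that spread may be only technical. The values are MAS5 signals, a summary of hybridisation brightness per probe set on a linear scale. Differences are given as hypertensive minus normotensive on the log2 scale, with the standard error (SE) of the fit.

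Chemokines guide leukocytes along a gradient by binding receptors that couple to G proteins, and the letters CXC stand for the spacing of a pair of conserved cysteines. CXCL2 and CXCL8 attract neutrophils through the receptors CXCR1 and CXCR2, and their genes are classical targets of NF-kB. CXCL9 attracts activated T cells and natural killer cells through CXCR3, and interferon-gamma induces it. CXCL12 is made by stromal cells, binds CXCR4 and the scavenger ACKR3, and holds progenitor cells in their niches. CXCL14 is made by epithelium and fibroblasts in resting tissues and is often lost in tumours. In the aortic valve, interstitial cells are the main resident cell of the leaflet and are known to secrete chemokines when stimulated.

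The arrays were scaled alike, with 2% trimmed means of 500.11 to 500.131, so a change of most transcripts in the same direction could not be seen. Hypertensive replicate 2 was the hypertensive array most like the normotensive group. Its mean correlation with the normotensive arrays across 14399 probe sets was 0.950, against 0.895 for hypertensive replicate 3 and 0.817 for hypertensive replicate 1. Results are given with this array and, where it matters, without it. The array was singled out for its likeness to the normotensive group, so leaving it out favours larger differences, and a call made without it is a description of the other arrays and no independent support. Leaving out any other single array called no chemokine. Of 12 markers of interstitial cells 10 had a probe set, and none of the 10 lay below the filter level of 48.5 on all arrays. VIM, the mesenchymal filament vimentin, was at 20203, 26412 and 18606 on the hypertensive arrays and at 24275, 22536 and 23983 on the normotensive ones. LUM and POSTN were lower without overlap of the groups, at log2 differences of -0.86 (SE 0.27) and -0.53 (SE 0.18), and 1 marker was higher without overlap. Among all 5271 kept genes 664 were lower and 489 higher without overlap. The means of 9 of the 10 interstitial cell markers were lower at hypertensive pressure and 0 passed the test below. Their median log2 difference was -0.30, and their summed signal was 88984 to 107276 on the hypertensive arrays and 112589 to 115602 on the normotensive arrays. The part of this shift in the results was not tested. In RNA from whole leaflets, fewer cells of a type and less RNA per cell cannot be told apart.

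The 3 inducible chemokines had higher signals at hypertensive pressure on every array, at 4.57 to 6.61 times the normotensive geometric mean, while the homeostatic pair split. CXCL12 was at 3.18 times and CXCL14 at 0.382 times, both with groups that overlapped. No chemokine passed an adjusted p of 0.05 on all 6 arrays, in a table where limma called 0 of 14399 probe sets (0%). At an unadjusted p under 0.05, limma had 1064 probe sets higher (7.39%) and 1372 lower (9.53%). The leading probe sets of CXCL2, CXCL8, CXCL9 and CXCL12 were among the higher ones. Groups that did not overlap were found in 10.4% of probe sets for higher and 12% for lower signal, and in CXCL2, CXCL8 and CXCL9. The chemokines were chosen with earlier results of these data known, so their place among these shares is no independent support.

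CXCL8, the main neutrophil attractant of the family, had signals of 16907, 5685 and 9751 on hypertensive replicates 1, 2 and 3 and of 1439, 1466 and 1538 on the normotensive replicates. Every hypertensive array lay at least 3.70 times above the highest normotensive array. The log2 difference was 2.72 (SE 0.36), with a 95% interval of 1.89 to 3.56, or 3.70 to 11.8 times. By limma with Benjamini-Hochberg adjustment it did not pass (adjusted p = 0.115), although its unadjusted p ranked 7th of 14399. The normotensive arrays lay close together on this gene, and their SD of 0.050 on the log2 scale was at percentile 3.69 among all kept probe sets. The hypertensive SD of 0.79 was at percentile 77.1. Without hypertensive replicate 2 the log2 difference was 3.12 (SE 0.25), and its adjusted p by limma was 0.00122, with 10.3% of probe sets called higher and 14% called lower in that fit.

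CXCL2, a neutrophil attractant known in mice as MIP-2, had signals of 21569, 3542 and 10918 on the hypertensive replicates and of 1918, 1939.55 and 2351 on the normotensive ones. The groups did not overlap, but hypertensive replicate 2 was only 1.51 times the highest normotensive array, where replicates 1 and 3 were 9.18 and 4.64 times. The log2 difference was 2.19 (SE 0.56), which did not pass (limma, adjusted p = 0.235). It was 1.59 without hypertensive replicate 1 and 2.90 without hypertensive replicate 2, where limma called it (adjusted p = 0.00202). CXC chemokines of this subgroup are close in sequence, so signal from related transcripts on the CXCL2 probe set cannot be told apart.

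CXCL9, the interferon-induced attractant of T cells, had signals of 394, 150.3 and 179 on the hypertensive replicates and of 28.5, 27.6 and 52.1 on the normotensive ones. The groups did not overlap, and the lowest hypertensive array was 2.88 times the highest normotensive one. The log2 difference was 2.67 (SE 0.46), or 6.37 times, and did not pass (limma, adjusted p = 0.164). Of the normotensive values, those of replicates 1 and 2 lay below the filter level of 48.5, so the size of the ratio is uncertain. The probe set passed the filter only through the hypertensive arrays, since its normotensive geometric mean was 34.5. With 64 added to every signal before the logarithm the difference was 1.53. Without hypertensive replicate 2 the difference was 2.95 (SE 0.48) and passed (limma, adjusted p = 0.00695).

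**Figure D1:**
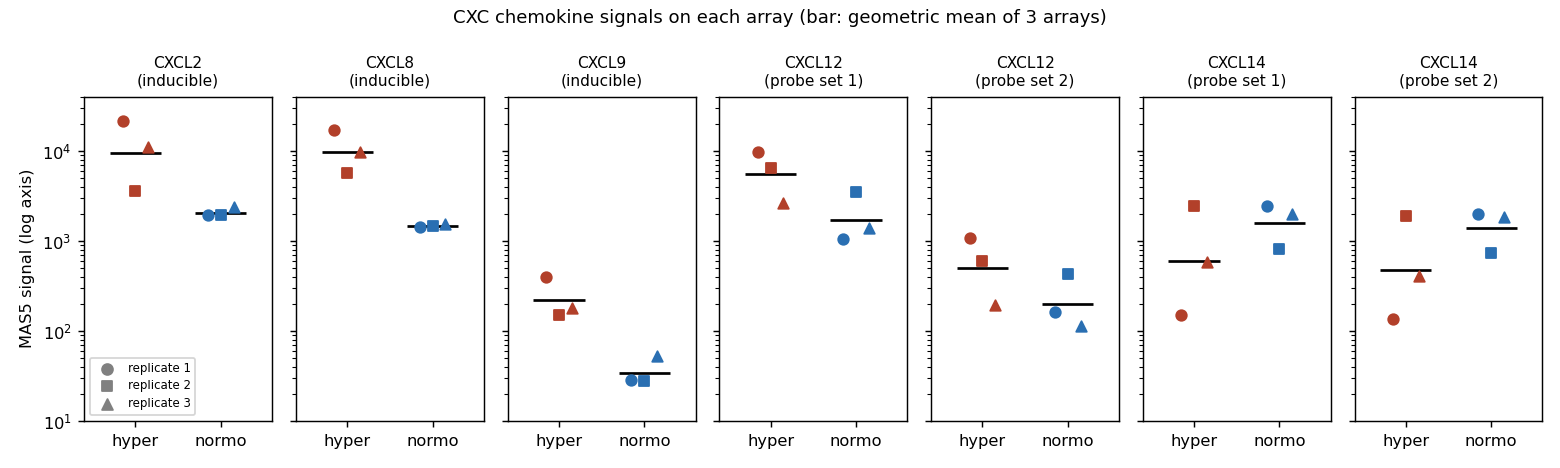
MAS5 signal (log axis) of each of the 7 chemokine probe sets on the 3 hypertensive arrays (hyper, red) and the 3 normotensive arrays (normo, blue), with marker shapes for the replicate number and bars for geometric means. CXCL2, CXCL8 and CXCL9 do not overlap between groups, CXCL12 and CXCL14 do, and hypertensive replicate 2 has CXCL14 at 2466 on the brighter probe set, just above the normotensive values of 807 to 2431.

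CXCL12, the stromal chemokine also called SDF-1, was read by a brighter and a dimmer probe set. The brighter had signals of 9702, 6466 and 2605 on the hypertensive replicates and of 1053, 3499 and 1373 on the normotensive replicates. Hypertensive replicates 1 and 2 lay above all normotensive arrays, whereas hypertensive replicate 3 lay below normotensive replicate 2. The log2 difference was 1.67 (SE 0.57), with an interval of 0.37 to 2.98, and did not pass (limma, adjusted p = 0.267). The dimmer probe set had 1069.9, 593 and 196 on the hypertensive arrays and 162, 434 and 114 on the normotensive arrays. Its log2 difference was 1.32 (SE 0.69, adjusted p = 0.348 by limma), with an interval of -0.26 to 2.90, and it was 1.99 without hypertensive replicate 3. Both had normotensive replicate 2 highest of its group and hypertensive replicate 3 lowest of its own. The lowest normotensive array was replicate 1 on the brighter probe set and replicate 3 on the dimmer. The brighter was 6.51 to 13.3 times the dimmer over the 6 arrays, and this ratio rose from replicate 1 to replicate 3 in both groups. Neither was called without hypertensive replicate 2 (adjusted p = 0.112 and 0.291).

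CXCL14, known in older work as BRAK, was the only one of the 5 with a lower mean at hypertensive pressure. Its brighter probe set had signals of 151, 2466 and 576 on the hypertensive replicates and of 2431, 807 and 1966 on the normotensive replicates. Hypertensive replicates 1 and 3 lay below every normotensive array, while hypertensive replicate 2 was the highest of all 6. The highest hypertensive array was thus 16.3 times the lowest, a spread whose SD of 2.02 on the log2 scale lay at percentile 99.2 among kept probe sets. The log2 difference was -1.39 (SE 0.91), with an interval of -3.48 to 0.70, and did not pass (limma, adjusted p = 0.426). It was -2.41 (SE 0.63) without hypertensive replicate 2, where limma called it (adjusted p = 0.0311), and -0.40 without hypertensive replicate 1. The second probe set had 135, 1913 and 405 on the hypertensive arrays and 1999.5, 739.7 and 1827 on the normotensive arrays, with a log2 difference of -1.56 (SE 0.87, adjusted p = 0.366 by limma). It was -2.57 (adjusted p = 0.0178) without hypertensive replicate 2 and -0.66 without hypertensive replicate 1. Both probe sets gave nearly the same pattern, the brighter at 1.08 to 1.42 times the second on every array.

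**Figure D2:**
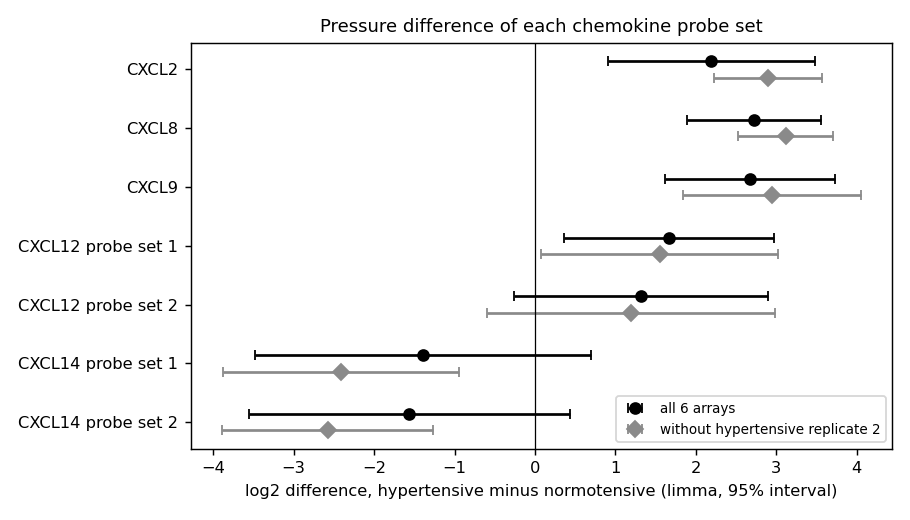
Log2 difference, hypertensive minus normotensive, of each chemokine probe set with its 95% interval from limma, for all 6 arrays (black circles) and without hypertensive replicate 2 (grey diamonds). The intervals of CXCL2, CXCL8, CXCL9 and the brighter CXCL12 probe set lie above 0 in both fits, and those of CXCL14 span 0 on all 6 arrays and lie below it without that array.

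The homeostatic pair also had the widest normotensive spread of the 5. The SD of the normotensive log2 signals was 0.91 for CXCL12 and 0.84 for CXCL14 on their brighter probe sets, at percentiles 97.9 and 97.2 among kept probe sets, whose median was 0.23. That of CXCL9 was 0.52, at percentile 87.8, that of CXCL2 0.17, at percentile 32.0, and that of CXCL8 0.050. Normotensive replicate 2 set this spread in both genes, as the array with the highest CXCL12 and the lowest CXCL14 of its group. Hypertensive replicate 1 had the highest CXCL12 and the lowest CXCL14 of all 6 arrays. Hypertensive replicate 2 departed from this opposition, with CXCL12 and CXCL14 both above every normotensive array on the brighter probe sets.

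Inducible and homeostatic chemokines were contrasted directly by taking, on each array, the log2 signal of 1 inducible minus that of 1 homeostatic member and comparing this value between groups. With 3 arrays in each group the smallest exact permutation p is 0.1, so no pair could pass 0.05. Against CXCL14 the inducible genes shifted most, by 4.11 (SE 1.69) for CXCL8, 4.06 (SE 1.64) for CXCL9 and 3.58 (SE 1.98) for CXCL2. CXCL8 minus CXCL14 on hypertensive replicates 1, 2 and 3 lay 6.89, 1.29 and 4.16 above its normotensive mean, and the normotensive arrays lay between -0.67 and 0.94. The groups did not overlap for CXCL8 and CXCL9 against CXCL14 (exact 2-sided p = 0.1 each, adjusted p = 0.3 over the 6 pairs), and they overlapped for CXCL2 (exact p = 0.2, adjusted p = 0.4). Without hypertensive replicate 2 these 3 values were 5.53, 5.36 and 5.31, and without hypertensive replicate 1 they were 2.73, 2.65 and 1.99.

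Against CXCL12 the groups overlapped for all 3 inducible genes. The differences were 1.05 (SE 0.80) for CXCL8, 1.00 (SE 0.82) for CXCL9 and 0.52 (SE 1.03) for CXCL2, with exact permutation p of 0.3, 0.4 and 0.6 (adjusted p of 0.45, 0.48 and 0.6 over the 6 pairs). The CXCL2 value was -0.12 without hypertensive replicate 3, -0.04 without normotensive replicate 2 and 1.35 without hypertensive replicate 2. The CXCL9 value was 0.33 without normotensive replicate 2, and it was -0.10 with 64 added to every signal. CXCL12 minus CXCL14, the contrast inside the homeostatic pair, was 3.06 (SE 1.75, exact permutation p = 0.2). Among the inducible genes CXCL8 and CXCL9 differed by 0.05 (SE 0.31, exact permutation p = 0.8), and CXCL2 minus CXCL8 was -0.53 (SE 0.33, exact permutation p = 0.1, adjusted p = 0.333 over 10 pairs).

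**Figure D3:**
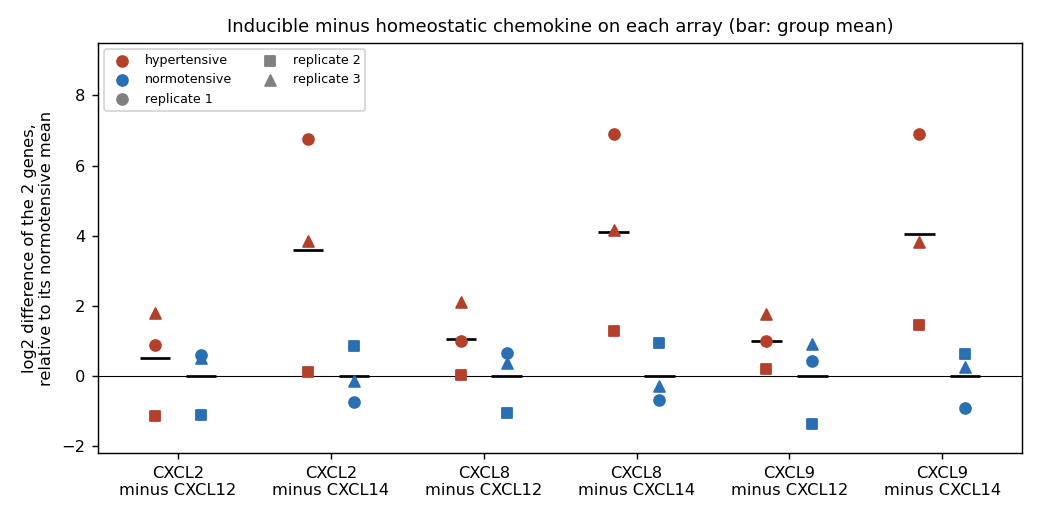
For each of the 6 pairs, the log2 signal of the inducible minus that of the homeostatic chemokine on every array, set to 0 at the normotensive mean, with hypertensive arrays in red left of normotensive arrays in blue, shapes for replicate numbers and bars for group means. Pairs with CXCL14 reach up to 6.89 on hypertensive replicate 1, and pairs with CXCL12 overlap between groups.

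The weight of single arrays differed between the genes. For CXCL8, leaving out any 1 array kept the log2 difference between 2.33 and 3.12, and for CXCL9 between 2.25 and 2.97. For CXCL2 the range was 1.59 to 2.90, for CXCL12 1.26 to 2.21 and for CXCL14 -2.41 to -0.40. The direction of each of these 5 genes was the same in every case. Over all alternatives, array weights included, the limma adjusted p ran from 5.71e-05 to 0.525 for CXCL8, from 0.000415 to 0.588 for CXCL2 and from 0.000738 to 0.588 for CXCL9. It ran from 0.0275 to 0.588 for CXCL12 and from 0.00814 to 0.861 for CXCL14.

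**Figure D4:**
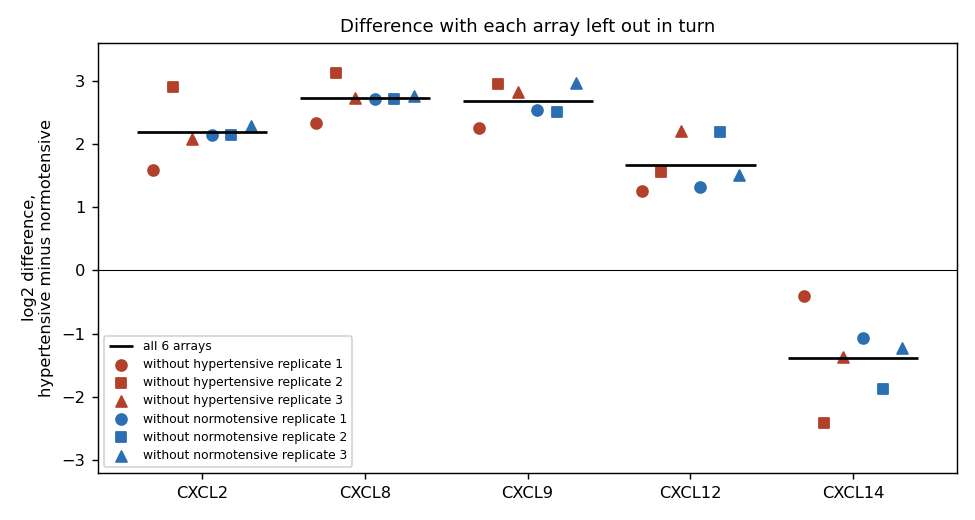
Log2 difference, hypertensive minus normotensive, of the brightest probe set of each chemokine on all 6 arrays (black line) and with 1 array left out (red for a hypertensive array, blue for a normotensive array, shapes for replicate numbers). CXCL8 stays between 2.33 and 3.12, while CXCL14 runs from -2.41 to -0.40.

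Of 13 further names of the CXC family, 4 genes had a probe set that passed the filter, all with higher means at hypertensive pressure, a median log2 difference of 0.67 and 0 past the threshold. The median over all 5271 genes was -0.07. AMCF-II, a pig neutrophil attractant whose RefSeq synonym is CXCL6, was read by 3 probe sets that disagreed on the size. The brightest had 11496, 8820.19 and 8567 on the hypertensive arrays and 5970.18, 6359 and 6194 on the normotensive arrays, a log2 difference of 0.63 (SE 0.18, limma adjusted p = 0.238). The other two had log2 differences of 2.97 (SE 0.46, adjusted p = 0.131) and 2.98 (SE 0.49, adjusted p = 0.141 by limma), and the groups did not overlap in any of the 3. CXCL16, a chemokine that also exists bound to the membrane, had signals of 4201, 3902 and 1323 on the hypertensive replicates and of 591, 1195 and 603 on the normotensive replicates. Its log2 difference was 1.89 (SE 0.49, limma adjusted p = 0.237), without overlap. PPBP, a platelet chemokine, and CXCL13, an attractant of B cells, had overlapping groups and log2 differences of 0.72 (SE 0.70) and 0.24 (SE 0.42).

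Of the receptors, CXCR4, which CXCL12 activates, was the 1 gene kept. It had signals of 1872, 1683 and 2141 on the hypertensive arrays and of 1251, 1401 and 1386 on the normotensive arrays. The groups did not overlap, but the log2 difference of 0.49 (SE 0.23) did not pass (limma, adjusted p = 0.314). CXCR6, the receptor of CXCL16, was below the filter, with at most 48.6 on the hypertensive arrays and 29.6 on the normotensive arrays. The receptors CXCR1, CXCR2, CXCR3 and ACKR3 were not analysed here.

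Genes of the NF-kB arm, a list of signals and factors known to induce CXCL2 and CXCL8, were mostly higher, with 15 of 17 kept genes at higher means, a median log2 difference of 0.79 and 0 past the threshold. The groups did not overlap in 10 of them, all higher, where 9.28% of the 5271 kept genes were higher without overlap and 2372 had higher means. The 5 chemokines, this list and the other lists were chosen with earlier results of these data known, so their counts are no independent support. TNFRSF1A, a receptor of tumour necrosis factor, had 6186, 3757 and 4819 on the hypertensive arrays and 2339, 1836 and 2168 on the normotensive arrays (log2 1.20, SE 0.25, limma adjusted p = 0.199). IL1A, an interleukin that activates NF-kB, had 2831, 226 and 449.5 on the hypertensive arrays and 100.3, 132 and 120.0 on the normotensive arrays (log2 2.50, SE 0.80, limma adjusted p = 0.259). Hypertensive replicate 1 was the highest array, as it was for CXCL2, CXCL8 and CXCL9. That array was also the least like the normotensive group across all kept probe sets. NFKBIA, the feedback inhibitor of the pathway, had 17111, 8643 and 8687 on the hypertensive arrays and 2531, 2265 and 2395 on the normotensive arrays (log2 2.18, SE 0.28, limma adjusted p = 0.115). Among the others of smallest p were the transcription factor CEBPB at 1.24, TNIP1 at 1.75 and IL6 at 5.28 (SE 1.34, limma adjusted p = 0.235). IL6 varied widely between the hypertensive arrays, at 22566, 297 and 2104, and had 81.5, 101 and 29.0 on the normotensive arrays. The TNF probe set was below the filter, with 246, 12.03 and 50.2 on the hypertensive arrays and 22.4, 55.2 and 39.9 on the normotensive arrays.

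In the interferon arm, a list of signals and targets of the pathway known to induce CXCL9, 16 of 17 kept genes had higher means, with a median log2 difference of 1.29 and 0 past the threshold. The groups did not overlap in 9, all higher, beside the same 9.28% over all kept genes. IRF1, a transcription factor downstream of interferon-gamma, had 5788, 602 and 1305 on the hypertensive replicates and 287, 284 and 219.7 on the normotensive replicates (log2 2.66, SE 0.72, limma adjusted p = 0.237). IRF8 had 1044, 259 and 510.5 on the hypertensive replicates and 154, 203 and 192 on the normotensive replicates (log2 1.51, SE 0.48, limma adjusted p = 0.259). The order of the hypertensive arrays was 1, 3, 2 in both, as for CXCL9 and also for CXCL2 and CXCL8. Across all 14399 kept probe sets the arrays departed from the normotensive group in this order too. Their mean correlations with that group were 0.817, 0.895 and 0.950, so the shared order is not particular to these genes. Further members by p were TAP1 at a log2 difference of 3.29, the GTPase GBP2 at 2.18, IRF7 at 1.90 and the receptor subunit IFNAR2 at 1.15. The genes of the interferons themselves, IFNG and IFNB1, lay below the filter level on all arrays, at no more than 46.1 for IFNG and 31.1 for IFNB1.

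Around CXCL12, a list of genes that act on it or beside it had 8 kept genes, of which 5 had higher means and 0 passed, with a median log2 difference of 0.35, which was 0.15 without hypertensive replicate 1. DPP4, a peptidase that trims and inactivates CXCL12, had 102, 138 and 122 on the hypertensive arrays and 29.4, 47.4 and 49.6 on the normotensive arrays. Its groups did not overlap, and the log2 difference was 1.54 (SE 0.35, limma adjusted p = 0.222), but with a normotensive geometric mean of 41.0 it passed the filter only through the hypertensive arrays. MMP2, a protease that also cleaves CXCL12, and the adhesion molecule VCAM1 were higher without overlap, at log2 differences of 0.56 (SE 0.21, limma adjusted p = 0.273) and 0.52 (SE 0.19, adjusted p = 0.269). HIF1A, the oxygen-regulated transcription factor subunit known to induce CXCL12, was at 0.42 (SE 0.25) with overlapping groups. PDGFRB was at -0.34 (SE 0.29) and SDC4 at 0.28 (SE 0.32).

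**Figure D5:**
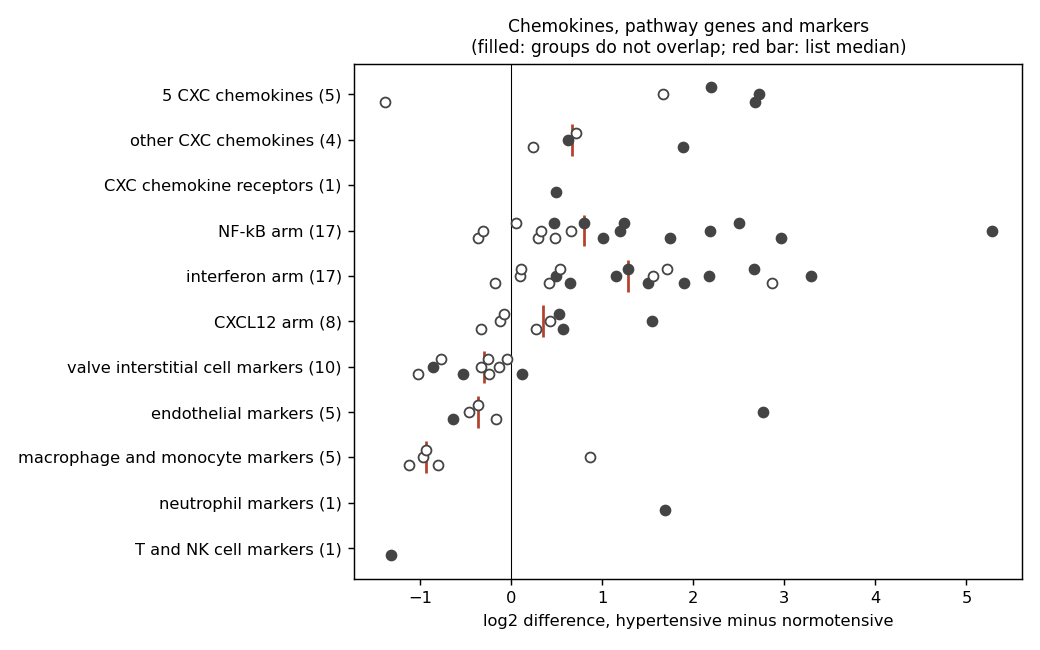
Log2 difference, hypertensive minus normotensive, of each kept gene (brightest probe set) among the 5 chemokines, the other CXC family genes, the receptors, the pathway lists and the marker lists, with the number of genes in brackets. Filled points have groups that do not overlap, red bars are list medians, and the medians of the NF-kB and interferon arms lie at 0.79 and 1.29.

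Markers of the leukocytes that these chemokines attract were mostly near or below the filter level. Of 11 neutrophil markers 6 had a probe set, and ELANE, S100A8, S100A12 and PGLYRP1 were below 48.5 on all arrays. The summed signal of the 6 was 260 to 747 on the hypertensive arrays and 118 to 185 on the normotensive arrays. The higher sums lay mainly in LTF, the iron-binding lactoferrin, at 255, 106 and 127 on the hypertensive arrays and 47.2, 63.5 and 34.6 on the normotensive arrays, and in S100A9. S100A9 had 342, 25.6 and 76.7 on the hypertensive arrays and 18.0, 7.77 and 20.2 on the normotensive arrays. LTF did not pass the test (limma, adjusted p = 0.235) and entered it only through the hypertensive arrays, since its normotensive geometric mean was 47.0, and S100A9 was below the filter. Of 8 T and natural killer cell genes with a probe set, CD2, CD3D, CD3E, CD3G, CD4 and PRF1 were below 48.5 on all arrays, and the sums were 139 to 231 on the hypertensive and 170 to 270 on the normotensive arrays. The 1 kept gene of this list, PTPRC, went the other way from LTF and S100A9, at a log2 difference of -1.33. It was lower without overlap, as were 664 of the 5271 kept genes, and did not pass the test.

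Macrophage markers were set beside CXCL14 array by array, with no test. On the brightest probe set, CD163, a scavenger receptor of macrophages, had 270.2, 1794 and 875 on hypertensive replicates 1, 2 and 3, in the same order as CXCL14. AIF1, C1QA and MRC1 had that order too, whereas CD14 had 68.6, 115 and 51.0. Across all kept probe sets, hypertensive replicates 2, 3 and 1 also stood in this order of likeness to the normotensive group. Their mean correlations with it were 0.950, 0.895 and 0.817, so the shared order is not particular to these genes. On the normotensive replicates CD163 had 1497, 2261 and 1294, and replicate 2, the highest of its group in all 5 kept markers, was lowest for CXCL14. The second CD163 probe set had another order, at 95.5, 82.7 and 187 on the hypertensive arrays and 85.4, 69.9 and 46.7 on the normotensive arrays, and its log2 difference was 0.80 against -1.12 for the brightest. Of 6 macrophage markers with a probe set 5 were kept, 4 of these with lower means, and 0 passed. Their summed signal was 798 to 4198 on the hypertensive arrays and 2873 to 5392 on the normotensive arrays, with ITGAM below the filter level on all arrays. For endothelial cells, which make CXCL12 in many tissues, 10 markers had a probe set. VWF, KDR, TIE1 and CLDN5 were below the filter level on all arrays, whereas PECAM1 and SELP lay above it on every array. How complete the removal of the endothelium was, was not tested. The endothelial sums were 2050 to 3927 on the hypertensive arrays and 2493 to 3059.8 on the normotensive arrays. PECAM1 had 425, 915 and 447 on the hypertensive arrays and 436, 1396 and 409 on the normotensive arrays, with normotensive replicate 2 highest as for CXCL12 in that group. SELP, the adhesion molecule P-selectin, had 2296, 784 and 368 on the hypertensive arrays and 95.4, 245 and 90.6 on the normotensive arrays, without overlap (log2 2.76, SE 0.67, limma adjusted p = 0.235). Its hypertensive arrays stood in the order of CXCL12, with normotensive replicate 2 again highest of its group. ERG, an endothelial transcription factor, was lower without overlap at a log2 difference of -0.64 (SE 0.27, limma adjusted p = 0.288), and ENG and TEK overlapped. Smooth and striated muscle genes summed to 429 to 1419 on the hypertensive arrays and 1156 to 2035 on the normotensive arrays. The part of these cells in the chemokine results was not tested.

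The genes whose profiles were most like each chemokine were found by the root-mean-square difference of log2 signals over the 6 arrays, each profile centred on its own mean, among 5266 genes. For CXCL8 the 3 nearest were C1H15orf48 at 0.30, NFKBIA at 0.36 and ENPP2, the secreted enzyme autotaxin, at 0.37, where the median over all genes was 1.51. For CXCL9 they were NFKBIA at 0.40, the syntaxin STX11 at 0.41 and the interferon-induced IFIT2 at 0.46. For CXCL2 they were the cyclin CCNJ at 0.23, PARP12 at 0.25 and CTH, an enzyme of cysteine synthesis, at 0.27. CXCL12 was nearest to PLAC8 at 0.23, the chemokine CXCL16 at 0.27 and CLEC2D at 0.39. CXCL14 was nearest to ANAPC16, a subunit of the anaphase-promoting complex, at 0.38, to the MYC antagonist MXI1 at 0.44 and to LOC100154081 at 0.46. Between the chemokines themselves the distance was 0.31 for CXCL8 and CXCL9, 0.42 for CXCL2 and CXCL8, 0.96 for CXCL8 and CXCL12, and 2.32 for CXCL12 and CXCL14. ANAPC16 had 188, 1379 and 396 on the hypertensive arrays and 1882, 686 and 2055 on the normotensive arrays. Normotensive replicate 2 was the lowest of its group, as for CXCL14. The highest was replicate 3 for ANAPC16 and replicate 1 for CXCL14.

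In the RefSeq annotation of the pig assembly Sscrofa11.1, CXCL8 is followed by AMCF-II and PPBP, and CXCL2 lies a few coding genes further on. CXCL9 stands close to CXCL10 and CXCL11 on the same chromosome, while CXCL12 and CXCL14 lie on other chromosomes, away from the rest of the family. The neighbours AMCF-II and PPBP had log2 differences of 0.63 to 2.98 and of 0.72, beside 2.72 for CXCL8. Of the controls, GAPDH was at 0.11 (SE 0.15) and ACTB at 0.32 (SE 0.24). The 3′ to 5′ ratio of the GAPDH control probe sets was 3.67, 2.91 and 6.04 on the hypertensive arrays and 3.02, 2.11 and 7.52 on the normotensive arrays, with overlapping groups. In both groups it was highest on replicate 3 and lowest on replicate 2, so it followed the replicate number. What this order reflects was not tested.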

How the data were processed

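Per the labels' protocols, each Affymetrix Porcine Genome Array took 10 µg of labelled cRNA, made by in vitro transcription in several rounds from 70 ng of total RNA. The deposited values are signal intensities that the authors made with GCOS and MAS5, per the submitters' processing notes; no version was stated there, and detection calls were not used here. The number of arrays limits the precision.

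Of 24123 probe sets, 124 controls were left out. Of the other 23999, the platform annotation gave 10069 a single symbol, 198 several and 13732 none. Intensities were taken to log2 without a pseudocount. Probe sets at or above the 40th percentile of mean log2 signal were kept (14399), among them all 7 chemokine probe sets. Hypertensive and normotensive arrays were tested in limma 3.58.1 (R 4.3.3; lmFit, eBayes with an intensity trend, 2-sided, Benjamini-Hochberg over all kept probe sets, threshold 0.05), after a check on simulated data. The brightest probe set leads for a gene. Pairs of chemokines were compared by an exact permutation test over the arrays, with an SE from the spread within groups; the 4 pairs within a class were added after values were seen. Genes of each list were named by smallest p, up to 6, with others named to say what was absent or because they bear on a chemokine. The chemokines and lists were chosen with earlier results of these data known. Alternatives were each array left out, array weights, other filters, pseudocounts and variance models, quantile or median scaling, the mean of a gene's probe sets, and a block for the replicate number.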

Additional observations from a re-analysis of the deposited data

How the results depend on the processing

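On all 6 arrays no setting of normalization, filter, pseudocount or variance model without weights called any chemokine. Array weights and the fit without hypertensive replicate 2, the array most like the normotensive group, did. With array weights 5639 of the 14399 kept probe sets passed, 2431 higher and 3208 lower, so a call there is common. The log2 differences were 2.46 for CXCL2, 2.77 for CXCL8, 2.64 for CXCL9, 1.36 for CXCL12 and -1.93 for CXCL14 (limma, adjusted p = 0.000415, 5.71e-05, 0.000738, 0.0275 and 0.00814). The dimmer CXCL12 probe set was at 0.55 and was not called (adjusted p = 0.362). The weights were 0.289, 0.195 and 2.38 for hypertensive replicates 1, 2 and 3 and 6.96, 0.931 and 1.15 for normotensive replicates 1, 2 and 3. The weighted hypertensive mean thus rests mostly on replicate 3 and the normotensive mean mostly on replicate 1. Normotensive replicate 1 had the lowest CXCL12 and the highest CXCL14 of its group on the brighter probe sets. With 1 array left out, 0 to 3505 probe sets passed, the most without hypertensive replicate 2 and 1 without normotensive replicate 2. The log2 difference ran from 1.59 to 2.90 for CXCL2, 2.33 to 3.12 for CXCL8, 2.25 to 2.97 for CXCL9, 1.26 to 2.21 for CXCL12 and -2.41 to -0.40 for CXCL14. Without an array, the contrast of CXCL2 with CXCL12 ran from -0.12 to 1.35 and turned to -0.12 without hypertensive replicate 3 and to -0.04 without normotensive replicate 2. The contrast of CXCL9 with CXCL12 turned to -0.10 with a pseudocount of 64. With that pseudocount CXCL9 was at 1.53 and CXCL12 at 1.63. Without hypertensive replicate 3 CXCL2 was at 2.08 and CXCL12 at 2.21, and without normotensive replicate 2 they were at 2.15 and 2.18. Why these arrays differed in CXCL12 was not tested. The median of the CXCL12 list ran from 0.15 to 0.45, and that of interstitial cell markers from -0.48 to -0.24, without 1 array. Without the filter, which lets dim genes in, the medians of endothelial, neutrophil and T cell markers were 0.20, 0.97 and -0.040, against -0.37 over 5 endothelial genes and the values of 1 gene each, 1.69 for LTF and -1.33 for PTPRC, with it. CXCL9 did not pass the stricter filter at the 60th percentile and has no value there. The remaining alternatives, 269 values, kept direction and side of the threshold or, for list medians, moved by less than the spread between arrays.

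With the replicate number as a block 0 probe sets passed, and CXCL8 had a log2 difference of 2.72 (SE 0.32, limma adjusted p = 0.0858). Same-numbered arrays deviated together with correlations of 0.059, 0.072 and 0.226, and every array correlated best with its own number, a hint from the data and not from the design. The block changed no call. Within each replicate number the hypertensive array had the higher CXCL12 signal on both probe sets. Paired by number, CXCL8, CXCL9 and CXCL2 minus CXCL12 kept their values, with SE of 0.40, 0.29 and 0.40 against 0.80, 0.82 and 1.03 unpaired. An exact test that flips the sign of each pair gave p of 0.25, 0.25 and 0.5, and 3 pairs allow none below 0.25. Against CXCL14 the SE rose for all 3 genes, to 2.09, 2.03 and 2.39. Low signal limits the ratio of CXCL9, with normotensive signals of 28.5 and 27.6 under the filter level.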
